A study of Homo sapiens with 4 samples.

Results

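Solute carriers are a large superfamily of membrane transporters, and the data below describe their transcripts in MOLM13, a human acute myeloid leukaemia line, after overexpression of BTG2, a protein that promotes shortening of mRNA poly(A) tails. Members were the genes whose symbol in the authors' deposited table starts with SLC and a number. That gave 189 of the 11597 genes listed, with 1 gene that meets the same pattern not analysed here. Of the 189, 176 were named for a carrier and fell into 41 families. The other 13 were 10 antisense, divergent or overlapping transcripts and 3 genes named for a neighbour or partner of a carrier (SLC2A4RG, SLC4A1AP and SLC7A6OS). The study asked how BTG2 bears on mRNA stability. Both groups carried a lentiviral EF1α vector with puromycin resistance and the green fluorescent protein ZsGreen. One group (genotype label "BTG2 OE", 2 libraries) also received a BTG2 cDNA, and the other (genotype label "WT", 2 libraries) the empty vector, with poly(A) RNA taken on day 3 after transduction. The labels mention neither drug selection nor sorting of the transduced cells, nor do they tell whether the libraries of a group were cultured apart, so that the spread behind the p-values may be technical.

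Each solute carrier family moves a class of small molecules or ions across a membrane, either by letting them follow their gradient or by coupling them to sodium, protons or an exchanged solute. Amino acid carriers of the SLC1, SLC3, SLC7 and SLC38 families supply glutamine, leucine, arginine and serine to growing cells, and several of them are known targets of ATF4, the transcription factor of the amino acid and integrated stress responses. The SLC39 family brings zinc into the cytosol and the SLC30 family takes it out, while the SLC25 family links the mitochondrial matrix to the rest of the cell. In leukaemia cells, the glutamine and leucine carriers are known for feeding the mTORC1 growth pathway.

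The data were the authors' results for this comparison, 1 table with a mean normalized count, a log2 fold change (BTG2 over empty vector), its standard error (SE) and an adjusted p for each gene, and no value per library. The spread between libraries therefore appears only through the SE. BTG2 itself was at 5.01 on the log2 scale (SE 0.091) per the authors' deposited table, in the direction of the labels. Of 12 markers of monocytic leukaemia, 11 were listed, at mean counts of 71.6 to 6277, and CD14 was not. Of 11 markers of other cells, only the keratins KRT8 (58.5) and KRT18 (421) were listed in the authors' deposited table. Among the leukaemia markers, MPO (-1.14), LYZ (-0.39) and CEBPA (-0.26) fell, and FLT3 (0.23) and HOXA9 (0.53) rose, in the authors' deposited table, and the part of such a shift in the carrier values was not tested. In bulk RNA, fewer cells with a transcript and less of it per cell cannot be told apart. Whether shortened tails lowered the capture of some transcripts in the poly(A) RNA was not tested.

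Transcripts of 6 plasma membrane amino acid carriers and of 2 zinc importers were lower with BTG2, at 0.665 to 0.80 times their empty-vector values, and 1 mitochondrial ADP/ATP carrier was higher by 9.01%. A gene was called at the authors' adjusted p under 0.05. By that rule 9 of 189 members (4.76%) were called, 1 higher and 8 lower, against 8.11% of all genes (3.64% higher and 4.47% lower) per the authors' deposited table. The members as a whole were thus not called more often than the background. Their median log2 fold change was 0.00070, beside 0.00026 over all genes. All 9 called members had mean counts no lower than 151, the median over all genes. Of 73 members at such counts, 12.3% were called against 13.6% of all 5799 such genes, and 8 were lower, where the share over all such genes was 7.6%. None of the 116 members below that mean count was called, and their median SE was 0.31 against 0.15 above it, so changes of the size seen here were mostly not detectable in them. At an unadjusted p under 0.05, 26 members stood out, 16 lower and 10 higher.

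**Figure D1:**
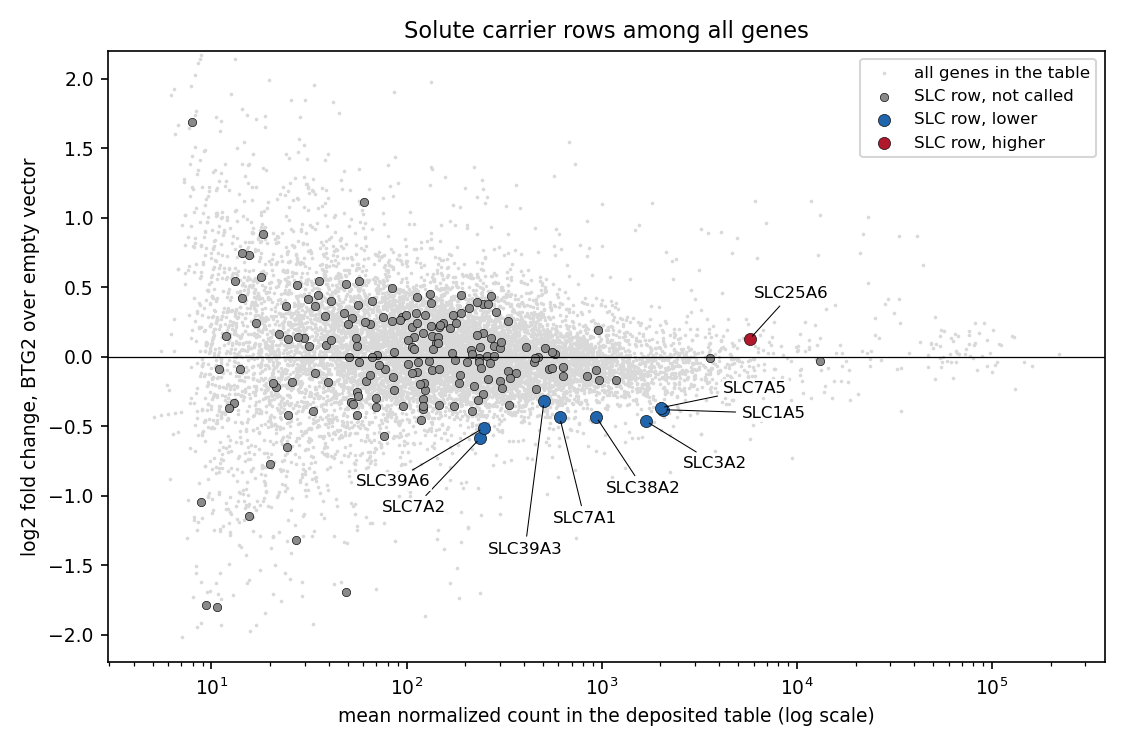
Mean normalized count (log axis) against log2 fold change of BTG2 over empty vector for every gene in the deposited table (pale points) and for the 189 solute carrier members (outlined points), with called members coloured and named. The 8 lower members lie between -0.59 and -0.32 at mean counts of 238 or more, and genes beyond 2.2 in either direction are not drawn.

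The called changes were small. Their absolute log2 fold changes ran from 0.12 to 0.59 in the authors' deposited table, and none reached 1. Another 8 members had an absolute log2 fold change of 1 or more without being called, at mean counts of 60.2 or less. An SE above 2 was attached to 5 members (SLC7A11, SLC25A32, SLC16A7, SLC5A3 and SLC38A4-AS1), whose fold changes are therefore not interpretable. At the other end, 54 members had a 95% interval that lay wholly within 0.5 of zero on the log2 scale, as computed from the deposited SE. Just inside the threshold were SLC39A6, SLC39A3 and SLC25A6, with adjusted p from 0.0101 to 0.0353. Just outside were SLC15A4 (-0.35, adjusted p = 0.0741), a lysosomal histidine and peptide carrier, SLC25A11 (0.44, adjusted p = 0.0776) and SLC38A10 (0.38, adjusted p = 0.116) per the authors' deposited table.

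Amino acid carriers held most of the calls. Of 17 measured members of SLC1, SLC3, SLC7 and SLC38, 6 were lower (35.3%), none was higher and 11 did not pass, against the 4.47% of all genes called lower. All 6 were among the 10 members no lower than the median mean count, where 7.6% of all genes were called lower. The group's median log2 fold change was -0.23. Of its members, 12 (70.6%) lay below zero, SLC7A11 with its SE above 2 among them, against 49.9% of all genes. Among the 172 members outside the group, 2 were lower and 1 was higher (1.74% called), with a median of 0.02. Only 63 of the 172 were no lower than the median mean count, and all 3 calls fell among them. These families were singled out with earlier results known, so the contrast is a description and was not tested.

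The CD98 complex, which exchanges large neutral amino acids such as leucine for glutamine, was lower in both of its chains. SLC3A2, the CD98 heavy chain that brings its light chains to the cell surface, had a mean count of 1682 and a log2 fold change of -0.46 (SE 0.064, adjusted p = 4.1e-11) per the authors' deposited table. In linear terms it fell by 27.5%, with a 95% interval of the change from -33.5% to -20.9%. SLC7A5, its light chain LAT1, had a mean count of 2003 and fell by 0.37 on the log2 scale (SE 0.062, adjusted p = 2.62e-07) per the authors' deposited table. The intervals of both chains overlap, at -0.59 to -0.34 for SLC3A2 and -0.49 to -0.25 for SLC7A5. Other light chains of the same heavy chain were not called: SLC7A6 (0.21) and SLC7A7 (0.08), both exchangers of cationic for neutral amino acids, lay above zero (mean counts of 107 and 55.7) per the authors' deposited table. The cystine and glutamate exchanger SLC7A11 was listed at -1.69 with an SE of 2.68.

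Sodium-coupled carriers of glutamine and other small neutral amino acids were lower as well. SLC1A5 (ASCT2), a sodium-dependent exchanger of glutamine, had a mean count of 2051 and a log2 fold change of -0.38 (SE 0.055, adjusted p = 4.75e-10) per the authors' deposited table, and so fell by 23.3%. SLC38A2 (SNAT2), known for its induction when cells lack amino acids, had a mean count of 934 and a value of -0.43 (SE 0.078, adjusted p = 2.15e-06) per the authors' deposited table, and so fell by 25.9%. Their nearest relatives did not pass. SLC1A4 (ASCT1), which carries serine and alanine, had -0.27 (95% interval -0.56 to 0.02, adjusted p = 0.345), and SLC38A1 (SNAT1), another glutamine carrier, had -0.23 (-0.47 to 0.01, adjusted p = 0.303) per the authors' deposited table. SLC38A5 had -0.09 and SLC38A9, a lysosomal carrier that reports arginine to mTORC1, had -0.09 in the authors' deposited table, with intervals that include zero. SLC38A10 lay on the other side at 0.38 (95% interval 0.08 to 0.68).

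The 2 measured carriers of the CAT type, which take up cationic amino acids, were lower. SLC7A1 (CAT1), which takes up arginine and lysine in most cells, had a mean count of 609 and a log2 fold change of -0.44 (SE 0.095, adjusted p = 0.000180) per the authors' deposited table. SLC7A2 (CAT2), its relative, had a mean count of 238 and the lowest value among the called members, -0.59 (SE 0.16, adjusted p = 0.00455) per the authors' deposited table. In linear terms SLC7A1 fell by 26.1% and SLC7A2 fell by 33.5%, and the intervals overlap (-0.62 to -0.25 and -0.90 to -0.28). All 6 called intervals of the group share the stretch from -0.49 to -0.34, so no order of size among them can be read.

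**Figure D2:**
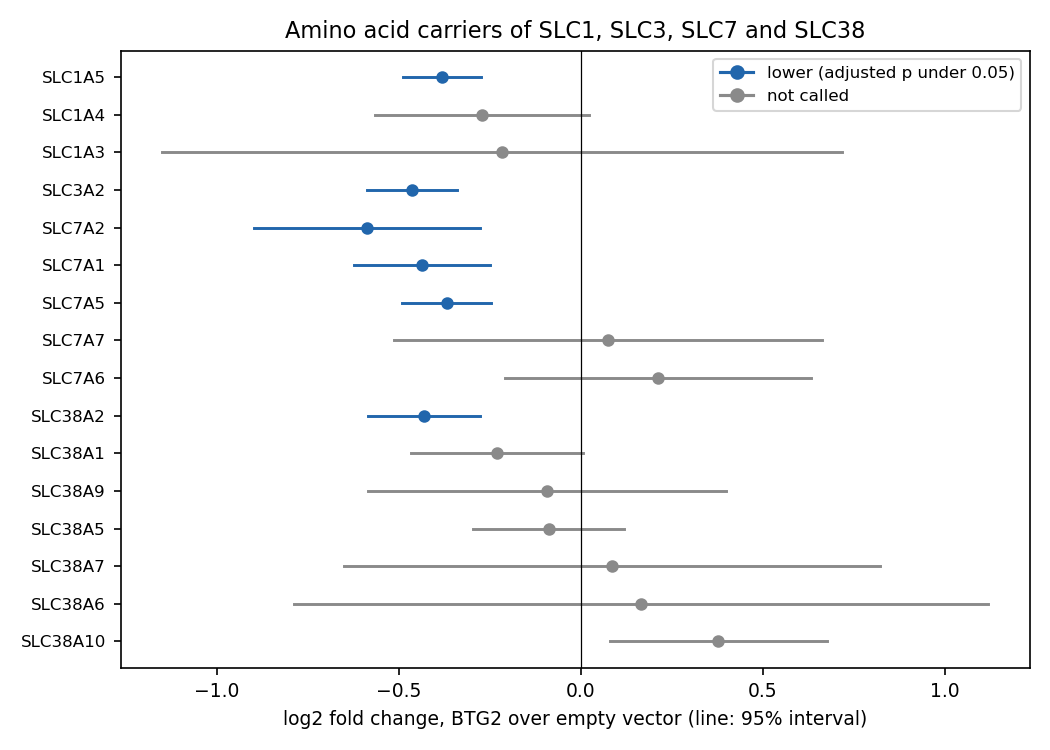
Log2 fold change of BTG2 over empty vector for the amino acid carriers of SLC1, SLC3, SLC7 and SLC38 (points), with 95% intervals from the deposited SE (lines), ordered by family and value. The 6 called carriers lie between -0.59 and -0.37 with intervals clear of zero, and SLC7A11 (SE 2.68) is not drawn.

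A list of 9 amino acid carriers linked to ATF4, drawn up with earlier results of these data known, had 8 measured members. Of these, 5 were lower (SLC1A5, SLC3A2, SLC7A1, SLC7A5 and SLC38A2) and none was higher. All 8 lay below zero, though the value of SLC7A11 (SE 2.68) is not interpretable. Their median was -0.43 in the authors' deposited table. Over all genes 4.47% were called lower (7.6% of the more abundant ones) and 49.9% lay below zero. The 3 that did not pass were SLC1A4, SLC7A11 and SLC6A9, a glycine carrier with -1.32 (SE 0.55, adjusted p = 0.138) at a mean count of 27.01 per the authors' deposited table. The 10 amino acid carriers outside that list had 1 member called, SLC7A2, and a median of -0.01. They were measured less tightly, with a median mean count of 92.2 and a median SE of 0.23. In the list these were 771 and 0.087, so smaller changes could be called there. The difference between the lists was not tested.

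The promoters of these carriers were read for the amino acid response element, the type of site at which ATF4 binds together with a C/EBP partner. RefSeq windows on GRCh38.p14 (250 bases before to 50 bases after an annotated start) were found for 15 of the 17 amino acid carriers, with no entry for SLC7A2 or SLC7A11, and for 141 of the 176 carriers. The letters TGATGNAA, or TTNCATCA on the other strand, stood in a window of 6 of the 15, against 12 of 141 carriers (8.51%) and 2.56% of 9026 listed genes with a window. Counted by windows, the shares were 6 of 28 (21.4%) for the group, 1.90% of 13074 for the listed genes and 3.62% of all 35116 windows. Of the 6, SLC1A5, SLC3A2 and SLC7A1 were called lower and SLC1A3, SLC1A4 and SLC38A1 were not. That is 3 of 5 called genes and 3 of 10 genes that were not called, so the letters occur in both. Genes with several annotated starts have several windows (3 each for SLC1A3, SLC1A5 and SLC3A2, 2 each for SLC1A4 and SLC38A1, 1 for SLC7A1), and 1 of them held the match. The 30 bases around each match are shown in the direction of the gene, 5′ to 3′, with the matching letters in capitals, to let the sites be compared:
SLC1A5: gaggaagtggcTGATGCAAgctgtccaggg
SLC3A2: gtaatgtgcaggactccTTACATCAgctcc
SLC7A1: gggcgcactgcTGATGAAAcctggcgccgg
SLC1A3: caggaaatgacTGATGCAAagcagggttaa
SLC1A4: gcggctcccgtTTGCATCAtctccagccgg
SLC38A1: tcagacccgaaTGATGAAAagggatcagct

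Positions below are given from the annotated start of the window that held the match. Beside the gene spans of GENCODE release 29, that start is the outermost one in SLC7A1. It lies inside the gene in SLC1A5, SLC3A2, SLC1A4 and SLC38A1, and upstream of the span in SLC1A3. The windows at the outermost starts of SLC1A5, SLC3A2 and SLC1A4 held no match. The sites of SLC1A5 and SLC1A3 share the 8 letters TGATGCAA and begin 97 and 220 bases before the start. Those of SLC7A1 and SLC38A1 share TGATGAAA, which begins at base 8 of the transcript in SLC7A1 and 4 bases before the start in SLC38A1. SLC1A4 and SLC3A2 hold the site on the other strand, 7 bases before the start and from base 38 of the transcript. The stretches lie on GRCh38.p14 at chr19:46784893-46784922 (SLC1A5, minus strand), chr11:62881719-62881748 (SLC3A2, plus), chr13:29595663-29595692 (SLC7A1, minus), chr5:36596357-36596386 (SLC1A3, plus), chr2:64989381-64989410 (SLC1A4, plus) and chr12:46266502-46266531 (SLC38A1, minus). A letter match does not show that a factor binds there. SLC7A1, the called gene with a match and 1 annotated start, is shown with its whole upstream window and the first 15 bases of the transcript (chr13:29595674-29595938, minus strand), to place the site in its promoter:
SLC7A1 upstream: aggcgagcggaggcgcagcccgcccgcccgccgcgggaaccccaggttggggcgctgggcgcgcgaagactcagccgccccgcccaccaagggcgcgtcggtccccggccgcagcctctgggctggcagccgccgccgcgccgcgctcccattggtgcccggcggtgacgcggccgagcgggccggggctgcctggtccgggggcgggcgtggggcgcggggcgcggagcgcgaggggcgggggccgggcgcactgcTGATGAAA

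Among zinc carriers, 2 importers were called. Of 11 measured SLC39 members, 2 were lower and none was higher, against 4.47% of all genes called lower and 7.6% of those no lower than the median mean count, where 10 of the 11 lie. Their median was -0.08, with 8 members below zero, in the authors' deposited table. A count of 2 in so short a list is given as a description. None of the 5 measured SLC30 members was called, and their median was -0.03. SLC39A6 (ZIP6), a zinc importer of the cell surface, had a mean count of 248 and a log2 fold change of -0.51 (SE 0.15, adjusted p = 0.0101) per the authors' deposited table, and so fell by 29.9%. SLC39A3 (ZIP3), another importer, had a mean count of 506 and a value of -0.32 (SE 0.10, adjusted p = 0.0293) per the authors' deposited table, or 0.80 times the empty-vector value. SLC39A3 was no longer called when fold changes were centred on the median of the more abundant genes.

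The rest of the zinc group did not pass. SLC39A14 (ZIP14), which also carries iron and manganese, had -0.32 (adjusted p = 0.215), close to the value of SLC39A3 but with an SE of 0.15 against 0.10 in the authors' deposited table. SLC39A10, the relative with which ZIP6 forms a complex, had -0.21 with a 95% interval from -0.55 to 0.13. Importers at higher mean counts were measured more tightly: SLC39A8 (838) had -0.14, SLC39A4 (635) -0.07, SLC39A1 (557) -0.08 and SLC39A7 (455), which releases zinc from the endoplasmic reticulum, -0.01 in the authors' deposited table. SLC39A9 (0.31) and SLC39A11 (0.30), further members of the import family, lay above zero with intervals that include it. On the export side SLC30A1 (ZnT1), which moves zinc out across the plasma membrane, had -0.36 (95% interval -0.72 to 0.01, adjusted p = 0.301) per the authors' deposited table. The exporters into the secretory pathway, SLC30A5 (-0.16), SLC30A6 (0.02) and SLC30A7 (0.03), lay nearer to zero there.

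**Figure D3:**
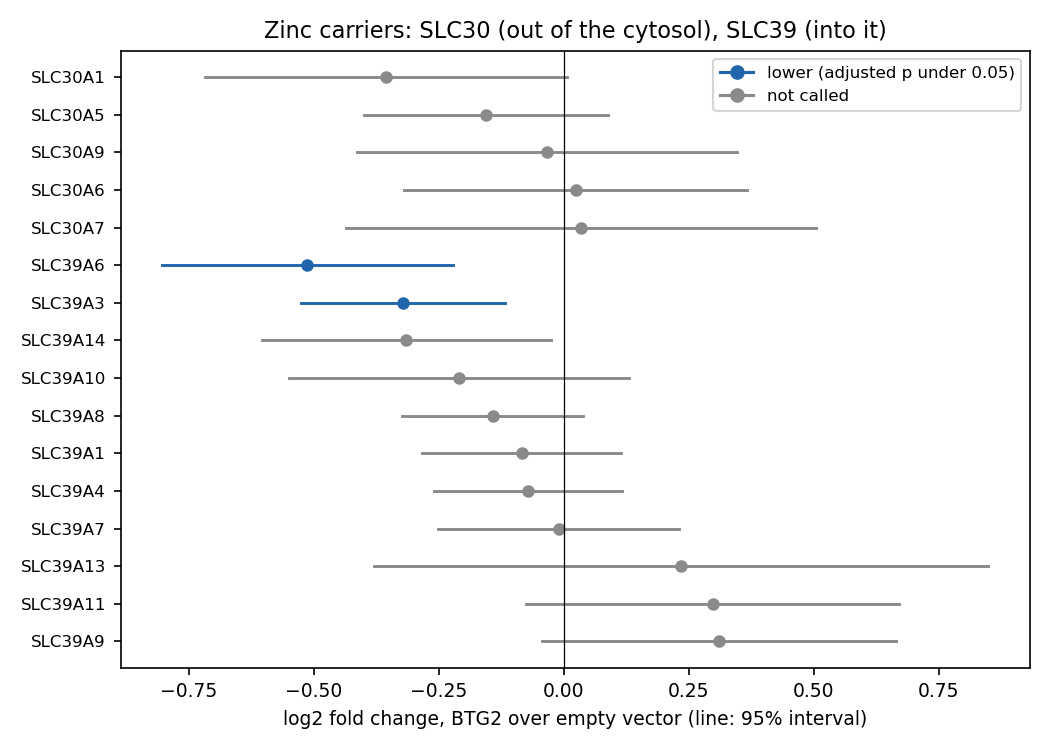
Log2 fold change of BTG2 over empty vector for the 16 zinc carriers (points) with 95% intervals (lines), the 5 SLC30 exporters above the 11 SLC39 importers. Only the intervals of SLC39A6 (-0.51), SLC39A3 (-0.32) and SLC39A14 (-0.32) lie wholly below zero, and SLC39A14 is not called after adjustment.

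The letters of a metal response type of element (TGCACNC or TGCGCNC, either strand) stood in the RefSeq windows of 8 of 14 zinc carriers (57.1%), SLC39A6 and SLC39A3 among them. They also stood in the windows of 46.7% of the listed genes and in 29.6% of all windows. So common a match does not set the group apart.

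Mitochondrial carriers with an SLC25 symbol, the largest family, stayed close to zero. Of these 36 members, 1 was higher and none was lower (2.78% called, against 8.11% of all genes, 3.64% higher), the median was 0.03, and 20 lay above zero in the authors' deposited table. The 95% interval lay wholly within 0.5 of zero for 15 of them. The called member was SLC25A6 (ANT3), 1 of the exchangers that bring ADP into mitochondria and release ATP. Its mean count was 5719 and its log2 fold change 0.12 (SE 0.041, adjusted p = 0.0353) per the authors' deposited table, a rise of 9.01%. UCP2 belongs to the same family under another symbol and is not among the 36. It was lower, at -0.62 (SE 0.080, adjusted p = 1.72e-12) per the authors' deposited table.

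The other carriers that feed ATP synthesis were not called. SLC25A3, the phosphate carrier, had the highest mean count of all members (13092) and a log2 fold change of -0.03 (95% interval -0.09 to 0.03) per the authors' deposited table. SLC25A5 (ANT2), with a mean count of 3605, had -0.01 (-0.10 to 0.08), and SLC25A4 (ANT1), with a mean count of 106, had 0.07 (-0.35 to 0.50). The coding sequences of the 3 ADP/ATP carriers are 78.2% to 79.7% identical, and GENCODE names 6 pseudogenes after SLC25A6, none of them listed, so how reads of such copies were assigned bears on these values and was not tested. The intervals of SLC25A5 and SLC25A6 overlap, between 0.04 and 0.08, and their difference was not tested.

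Carriers of metabolites into and out of the matrix did not pass either. SLC25A1, which exports citrate for fatty acid and sterol synthesis, had -0.17 (adjusted p = 0.164), and SLC25A11, the oxoglutarate and malate exchanger, had 0.44 (adjusted p = 0.0776) per the authors' deposited table. The 3 measured carriers of aspartate and glutamate, SLC25A12 (0.28), SLC25A13 (0.21) and SLC25A22 (0.14), all lay above zero without being called. Among the 5 carriers of iron, glutathione and glycine that serve haem and iron-sulfur cluster synthesis, none was called. The iron importer mitoferrin SLC25A37 had 0.26 (95% interval -0.0045 to 0.52), its relative SLC25A28 had 0.07 and the glutathione carrier SLC25A39 had -0.10 in the authors' deposited table. SLC25A43, a carrier without an assigned substrate, had -0.36 (adjusted p = 0.394) per the authors' deposited table. None of the 9 measured nucleotide and cofactor carriers and none of the 3 calcium-regulated carriers of ATP-Mg and phosphate was called.

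**Figure D4:**
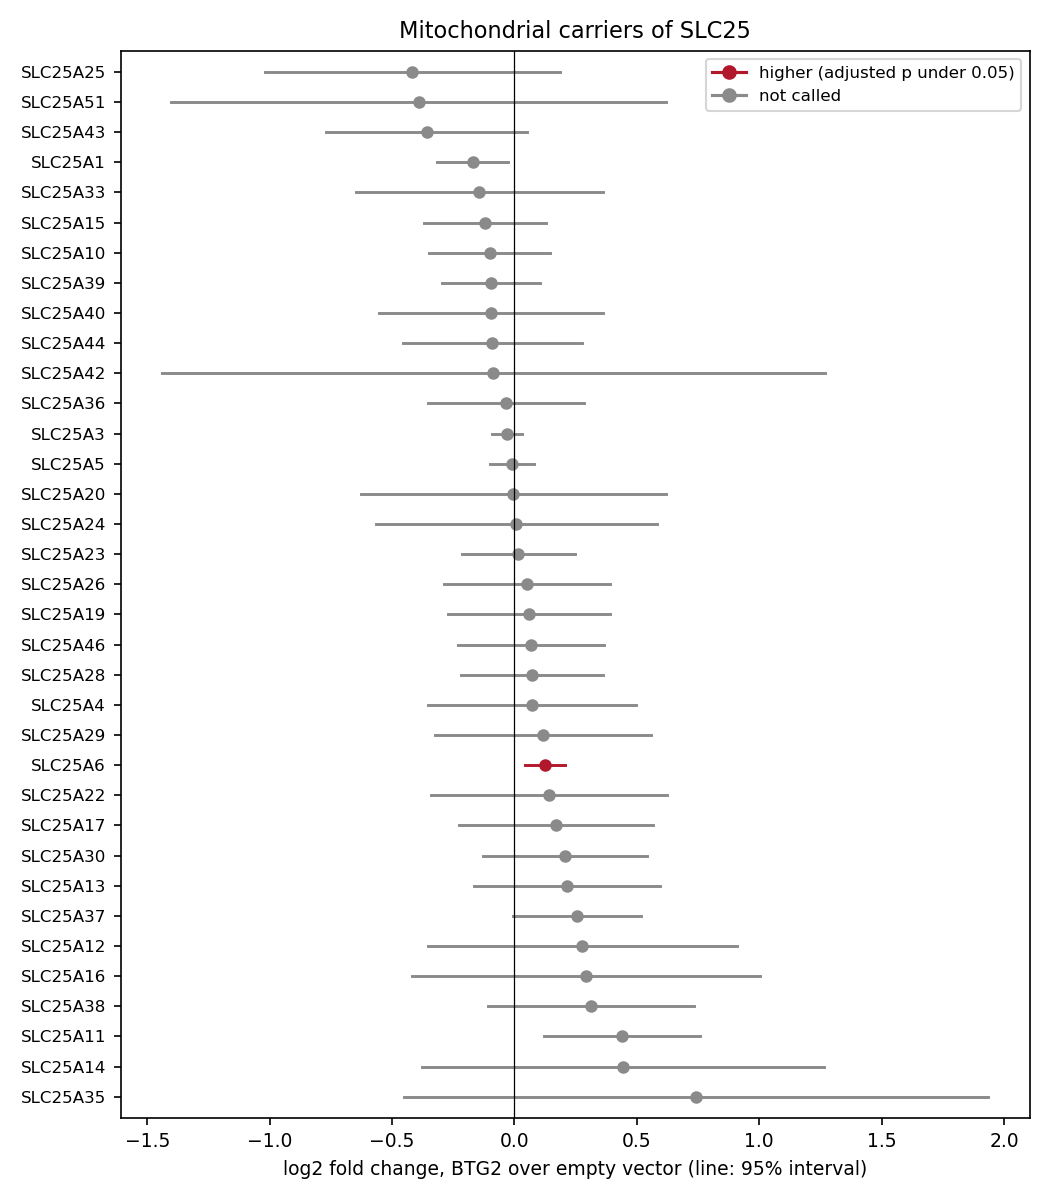
Log2 fold change of BTG2 over empty vector for the carriers with an SLC25 symbol (points) with 95% intervals (lines), ordered by value, SLC25A32 (SE 4.56) not drawn. SLC25A6 (0.12) is the called carrier, and SLC25A3 and SLC25A5 have the narrowest intervals among those not called.

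No carrier of the remaining groups was called, against 8.11% of all genes and 13.6% of those no lower than the median mean count. Below that count no member of any group was called. It was reached by 7 of 21 nucleotide sugar carriers, 5 of 16 sugar carriers and 2 of 16 ion carriers. An absence of calls there does not show an absence of change. Groups were formed by family number, so some members may carry other substrates than the group's name says. Nucleotide sugar carriers of SLC35 load the endoplasmic reticulum and Golgi with building blocks for glycans. The 21 measured SLC35 members had a median of 0.05 in the authors' deposited table. SLC35A3, a carrier of UDP-N-acetylglucosamine, had the largest test statistic among them, with 0.39 (adjusted p = 0.296), and SLC35B2, which imports the sulfate donor PAPS, had -0.14 (SE 0.091) per the authors' deposited table. The 16 members of the sugar group had a median of 0.07. Of the glucose carriers, SLC2A3 (GLUT3) had -0.17 (adjusted p = 0.323) at a mean count of 971 and SLC2A1 (GLUT1) had 0.13 at 272 in the authors' deposited table. SLC2A14 shares 97.0% of its aligned coding bases with SLC2A3, so its value (-0.37 at a mean count of 12.4) is uncertain.

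Lactate, vitamin and ion carriers had no calls either, with 2 of 5, 2 of 5 and 2 of 16 members no lower than the median mean count. The lactate exporter SLC16A3 (MCT4) had 0.32 and SLC16A1 (MCT1), which carries lactate either way, -0.18, with adjusted p of 0.482 and 0.608 in the authors' deposited table. The reduced folate carrier SLC19A1, which also takes up methotrexate, had 0.35 (95% interval 0.04 to 0.65, adjusted p = 0.177) per the authors' deposited table. The copper importer SLC31A1 had -0.39 (adjusted p = 0.248), and the iron carrier SLC11A2 (DMT1) had 0.29 (adjusted p = 0.676) per the authors' deposited table. Among 16 ion exchangers and cotransporters the largest test statistic was that of SLC12A9 (0.38, adjusted p = 0.157) per the authors' deposited table. Among the 10 carriers of other amino acids and peptides, SLC43A3, known to carry purine nucleobases, had 0.19 (adjusted p = 0.170) at a mean count of 958 in the authors' deposited table. The sodium-coupled phosphate carrier SLC20A1 had -0.23 and the equilibrative nucleoside carrier SLC29A2 had 0.24, neither called. Of the organic ion and vesicular carriers, SLC17A9, which loads vesicles with ATP, had 0.44 and the lysosomal sialic acid carrier SLC17A5 had -0.46, with adjusted p of 0.169 and 0.191 in the authors' deposited table. The 13 members that are no carrier had no call and a median mean count of 16.9.

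**Figure D5:**
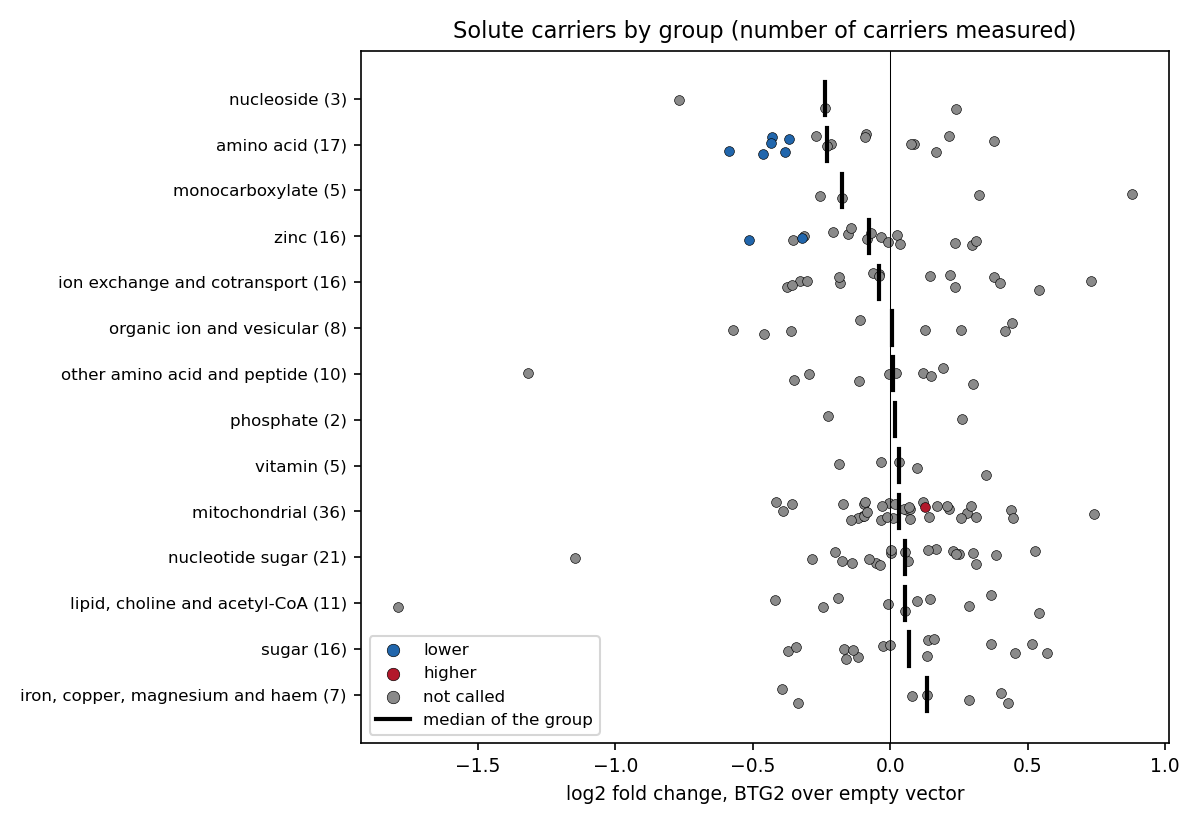
Log2 fold change of BTG2 over empty vector for each carrier (points, jittered vertically) in 14 groups of families, with the median of each group (black bar) and the number of carriers measured in brackets. Calls occur in the amino acid, zinc and mitochondrial groups alone; 4 carriers with an SE above 2 count towards the medians but are not drawn, and the 3 ungrouped SLC66 carriers are not shown.

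On GENCODE release 29 (hg38), the 9 called members, all protein-coding genes, lie as follows: SLC3A2 at chr11:62856102-62888875, SLC7A5 at chr16:87830023-87869488, SLC1A5 at chr19:46774883-46788594, SLC38A2 at chr12:46358189-46372867, SLC7A1 at chr13:29509410-29595688, SLC7A2 at chr8:17497088-17570573, SLC39A6 at chr18:36108532-36129385, SLC39A3 at chr19:2732204-2740152 and SLC25A6 at chrX:1386152-1392724. SLC3A2 and SLC7A2 lie on the plus strand and the other called members on the minus strand. In all, 53 members overlap a listed gene, 48 on the opposite strand and 5 on the same one, so reads of such pairs could be mixed if strand was ignored. SLC5A3 is among them, overlapping MRPS6 on its own strand.

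The question of mRNA stability gave reason to describe the 3′UTR, the part of a transcript that holds many decay signals. In the longest coding transcript, the 8 lower carriers had a median 3′UTR of 1992 bases, with a range from 52 (SLC39A3) to 5415 (SLC7A2). The 167 carriers that were not called had a median of 1232, and all 10402 coding genes one of 977. All 8 lie at or above the median mean count, where the 61 carriers that were not called had a median of 810 bases and the 431 coding genes called lower one of 472. SLC3A2 (167 bases) and SLC1A5 (627 bases) have short 3′UTRs, while SLC7A5 (2947), SLC38A2 (2922) and SLC7A1 (5070) have long ones, so the 8 do not share a length. Across the 176 carriers, the log2 fold change and the 3′UTR length had a Spearman rho of 0.0076, against 0.10 across all coding genes, given as a description since genes are not independent replicates.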

How the data were processed

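RNA from 4 libraries of MOLM13 cells (2 with BTG2, 2 with empty vector, grouped by the sample titles) was compared by the authors, and their single table of 11597 genes was analysed here. Members, families and comparison lists were chosen with earlier results of these data known. Per the file headers, the mean column is the authors' mean normalized count, a signal pooled over libraries. The authors deposited fold changes and their errors as log2 values. The deposited test statistic is a score equal to the fold change over its standard error (largest difference 2.72e-07). The deposited adjusted p-value could be rebuilt from the raw one by the Benjamini-Hochberg method (largest difference 1.48e-06). Per the submitters' processing notes, minimap2 and hg38 were used. Their roles and versions, the counting, its use of strand, the normalization, the filter and the test program are not given in these sources. The labels' protocols name a short-fragment kit and paired reads, while the series title speaks of long reads, and which made the values is not given either. Mean counts are not per length, so they describe precision and are not compared between genes as levels.

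No counts per library were in hand, so the depth of each library is unknown, and the authors' deposited test (adjusted p under 0.05) stood in place of a count model. Intervals at 95% were computed from the deposited standard errors on the normal scale. The rule for named genes took every called member, up to 4 members of each group with the largest absolute test statistic, the 10 highest mean counts, 3 members on either side of the threshold, wide or very large values, called genes of the comparison lists and the most similar members. Similarity was computed on coding sequences with blastn 2.17.0. Some further members, such as SLC2A1 and SLC38A9, are named for their role. Transcript lengths and positions came from GENCODE release 29, in which all 189 members were found by identifier. Promoter windows came from RefSeq (GRCh38.p14), matched by symbol. A sequence is printed where its gene held the searched letters. Python 3.11.15 with numpy 2.4.6, pandas 2.3.3, scipy 1.17.1 and matplotlib 3.10.9 was used, and the calculations were tested on simulated data. The alternatives tried were other limits of adjusted p and of size, a test against 0.5 on the log2 scale, a filter on mean count, a recomputed adjustment, recentring and narrower sets of members.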

Additional observations from a re-analysis of the deposited data

How the results depend on the processing

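The 9 calls were the same after a recomputed adjustment and in the more abundant genes (those no lower than the median mean count). They were also the same with carriers alone (chosen after seeing the data) or without antisense and divergent transcripts. None of these settings could change the calls, so the sameness is no test of them. The recomputed adjustment rebuilt the deposited values, and the filters kept those values. All 9 called members are carriers with mean counts of 238 or more. No call changed direction in these or the following alternatives. The median of all members moved from 0.00070 to -0.03 in the more abundant genes, where the median over all genes was -0.03 as well. An adjusted p under 0.01 kept 6 calls and lost SLC25A6, SLC39A3 and SLC39A6, which left 0 members higher, 0 zinc carriers lower and 0 mitochondrial carriers higher. An adjusted p under 0.1 gave 11 calls and added SLC15A4 and SLC25A11, which made 2 members higher, both mitochondrial carriers. No member was called in either direction, in the amino acid, zinc and mitochondrial groups included (0 each), with an absolute log2 fold change of at least 1 (1.03% of all genes passed) or when tested against a change of 0.5 in log2 (0.638% of all genes passed). Among the more abundant genes the amino acid median was -0.38 in place of -0.23. Recentring on the median of those genes, a shift of -0.03, kept 8 calls and lost SLC39A3 (-0.30), which left 1 zinc carrier lower, put values just under zero such as SLC39A7 and SLC25A5 above it, and the calls over all genes became 500 higher and 433 lower in place of 422 and 518. The causes of these moves were not tested, beyond the stricter or looser limits themselves. No paired analysis was possible because the table holds no values per library, and leaving out each replicate in turn could not be run for the same reason. With depth unknown, precision was limited by the mean count: no member under 151 was called.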

Other observations

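Transporters outside the solute carrier symbols were called at shares below or near the 8.11% of all genes. Of 28 measured carriers that belong to solute carrier families but bear other symbols, 1 was lower (3.57% called): UCP2, a mitochondrial inner membrane carrier that belongs to the SLC25 family, with -0.62 (SE 0.080, adjusted p = 1.72e-12) per the authors' deposited table. MPC2, a subunit of the mitochondrial pyruvate carrier, had -0.32 (adjusted p = 0.0848) per the authors' deposited table, and its partner MPC1 had -0.06. Of 11 partner proteins of carriers, 1 was lower (9.09% called): BSG (basigin), which brings the lactate carriers SLC16A1 and SLC16A3 to the cell surface, with -0.15 (SE 0.038, adjusted p = 0.00250) per the authors' deposited table. Its relative EMB had -0.21 (adjusted p = 0.0602) per the authors' deposited table and was not called.

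Lists of ABC proteins and P-type ATPases were likewise near that background when both directions were counted, with 10.5% and 9.52% called. Of 19 genes of the ABC family, ABCB10, a mitochondrial inner membrane protein of erythroid haem synthesis, was lower at -0.87 (adjusted p = 8.28e-31), and ABCF1, a translation factor of the ABC family that is no transporter, was higher at 0.53 (adjusted p = 0.000130) per the authors' deposited table. Of 21 P-type ATPase genes, 2 were higher (9.52%, against 3.64% of all genes called higher) and none was lower: ATP2A3, a calcium pump of the endoplasmic reticulum, at 0.48 (adjusted p = 0.000161), and the lipid flippase gene ATP8B4 at 0.41 (adjusted p = 0.0134), per the authors' deposited table. The median of the list was 0.12, with 17 of 21 above zero and 19% below it, where 49.9% of all genes lay below zero. So short a list is described only, and the difference was not tested. Of 10 measured genes of iron handling, 1 was called: FTL, the ferritin light chain, was lower at -0.27 (adjusted p = 2.47e-21) per the authors' deposited table, while the transferrin receptor TFRC, at -0.18 (adjusted p = 0.279), was not called.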
